A study of Rattus norvegicus with 17 samples.

Results

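The melanocyte pigment genes were followed in RNA of the meibomian gland (MG), the oil gland of the eyelid margin. They were chosen by name: Tyr, Tyrp1, Dct, Pmel, Mlana, Mitf, Oca2, Slc45a2, Kit and Sox10. Of these 10 names, 9 were found among the 17251 genes of the expression table and Dct was not analysed here. All 9 were among the 13105 genes that reached 1 TPM in at least 3 of the 17 rats and were therefore tested. TPM is the share of a transcript among all transcripts of a library, scaled to transcript length.

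The rats were female Sprague-Dawley animals of 10 to 12 weeks, and the study asked how the mineralocorticoid receptor (MR) changes the response of the MG to UVB. WT rats carried no transgene. P1.hMR rats carried human MR, the product of NR3C2, under its own proximal P1 promoter, which is active in all tissues that express MR and so is not restricted to the gland. The 4 groups were Control WT (n = 4) and UVB WT (n = 3), Control P1.hMR (n = 5) and UVB P1.hMR (n = 5), where UVB stands for daily irradiation of the eyelids over 5 days and control for rats of the same age and sex without irradiation. The study's methods state that the irradiated upper eyelids were shaved and say nothing of shaving in the control rats. They count the irradiated material in eyes and the control material in rats, while each library had a title and an animal number of its own and was taken as 1 rat.

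Melanocytes make melanin in melanosomes, organelles that they pass to keratinocytes of the epidermis and the hair shaft, and the eyelid carries both. Tyrosinase (Tyr) starts melanin synthesis and Tyrp1 acts later in it, Pmel forms the fibrils on which melanin is laid down, and Oca2 and Slc45a2 are membrane proteins that help to set the pH at which tyrosinase works. MITF drives the transcription of these genes, SOX10 acts above it in melanocytes and is also made by Schwann cells, and KIT is a receptor of melanocytes and of mast cells. The Sprague-Dawley rat is an albino strain, so its melanocytes can carry these transcripts without making melanin.

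The human transgene was listed at 0 TPM in every WT rat and at 5.31 to 9.31 TPM in the P1.hMR rats, as the labels had it. A list of 12 MG genes summed to between 28289 and 32342 TPM in the 17 rats, 7 skeletal muscle genes to between 1653 and 3714, and 5 listed genes of the lacrimal and secretory epithelium to between 7.59 and 12.9. TPM keeps no read counts, so the depth behind each value is unknown and the only error given is the spread between rats. In bulk RNA, fewer melanocytes and less RNA in each melanocyte cannot be told apart.

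The promoters of Tyr, Tyrp1 and Pmel are shown because these genes moved together in the rats and because MITF is known to bind the letters CATGTG and CACGTG. The RefSeq table of promoters, which holds 1 start per gene on assembly GRCr8 and spans 250 bases before to 50 bases after it, had an entry for 7 of the 9 genes. The stretches below are the 130 bases before the start, 5′ to 3′ on the strand of the gene, with CATGTG in capitals. The Tyr stretch is chr1:150622858-150622987 on the minus strand, that of Tyrp1 is chr5:100326995-100327124 on the plus strand and that of Pmel is chr7:1723113-1723242 on the plus strand.
Tyr: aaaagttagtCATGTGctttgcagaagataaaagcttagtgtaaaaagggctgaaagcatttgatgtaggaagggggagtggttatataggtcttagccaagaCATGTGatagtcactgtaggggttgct
Tyrp1: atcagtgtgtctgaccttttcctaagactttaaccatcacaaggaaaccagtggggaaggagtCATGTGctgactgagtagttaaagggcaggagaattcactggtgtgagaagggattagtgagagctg
Pmel: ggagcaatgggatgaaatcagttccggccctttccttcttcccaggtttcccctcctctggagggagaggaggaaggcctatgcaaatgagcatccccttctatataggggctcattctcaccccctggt

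On either strand of the whole window, CATGTG was found in 3 of the 7 promoters, those of Tyr, Tyrp1 and Mlana, and in 14.0% of the 33469 promoters of the table. The Tyr promoter held it at 2 places, from base -120 to -115 and from -27 to -22 before the start, and the Tyrp1 promoter from -67 to -62. In Mlana it lay on the opposite strand, from -204 to -199. The longer TCATGTG, which contains CATGTG, was found in the same 3 promoters and in 3.56% of all promoters, whereas CACGTG was in none of the 7 and in 6.42% of all. The Mitf and Kit windows held none of these letters, and a window with or without them says nothing of binding in these rats.

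Because TPM is scaled to length, the levels of the 9 genes can be set side by side. Pmel had the highest level, 44.2 ± 12.9 TPM (mean ± SD over the 17 rats), followed by Tyrp1 at 28.9 ± 8.66, Kit at 20.4 ± 3.15 and Mlana, a melanosome membrane protein, at 11.7 ± 3.30. Mitf came next at 7.60 ± 1.38 TPM, followed by Tyr at 4.31 ± 1.47 and Sox10 at 3.53 ± 0.788. The transporters were lowest, with Slc45a2 at 1.52 ± 0.594 TPM and Oca2 at 0.731 ± 0.285. Oca2 reached 1 TPM in only 3 rats, all P1.hMR, and so just passed the filter, and Slc45a2 did so in 14, while the other 7 genes did in all 17. Each gene was higher than the next one in this order in 17 of 17 rats, except Tyrp1 against Kit and Tyr against Sox10, where the order held in 12 of 17. All 3 UVB WT rats were among the 5 exceptions of each pair, and their mean was 19.1 TPM for Tyrp1 against 23.2 for Kit, and 2.38 for Tyr against 2.90 for Sox10.

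**Figure D1:**
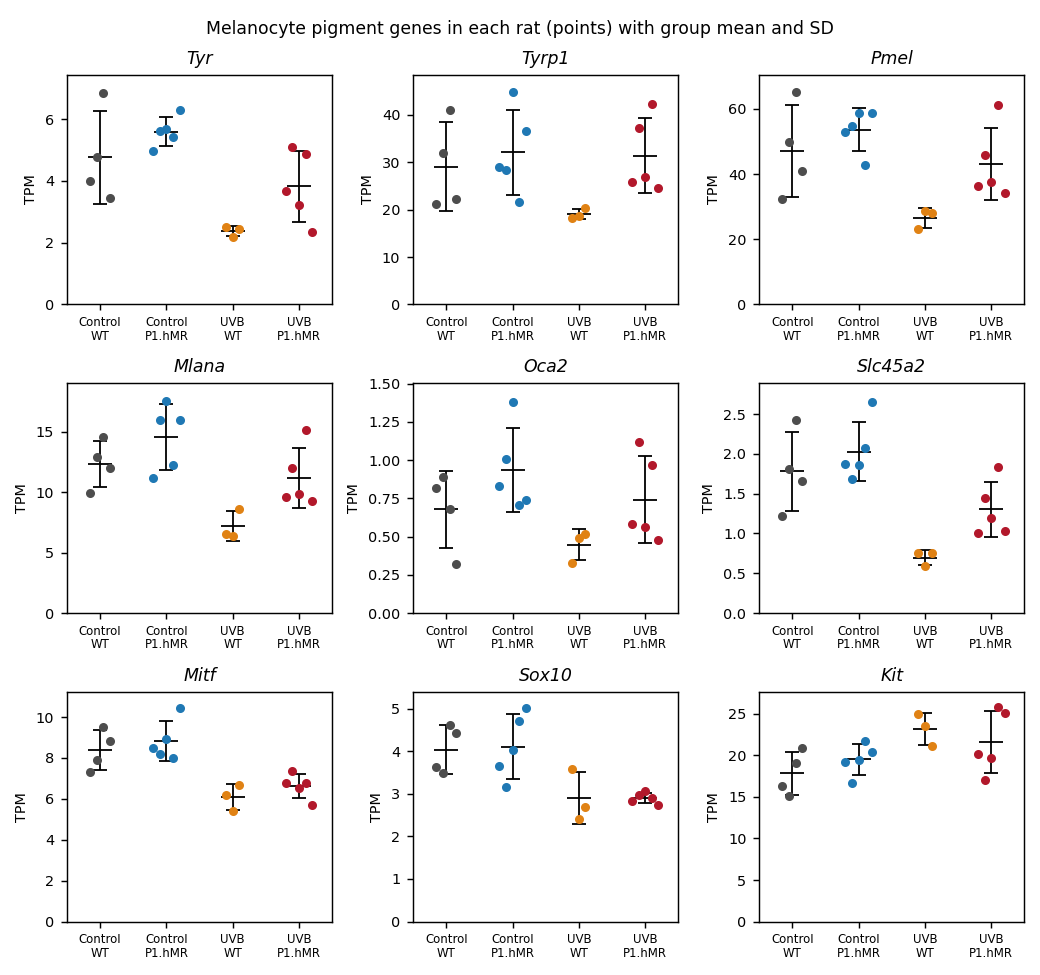
TPM (vertical axis, linear from 0) of the 9 genes in each of the 17 rats (points) by group (horizontal axis), with the group mean and SD as bars. The 3 UVB WT rats sit below all 4 Control WT rats for Tyr, Tyrp1, Pmel, Mlana, Slc45a2 and Mitf and above them for Kit, and the 5 UVB P1.hMR rats sit above the UVB WT rats for Tyrp1, Pmel, Mlana and Slc45a2.

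The first comparison asked what UVB did in WT rats. Tyr, Pmel, Mlana and Slc45a2 fell, the mean TPM after UVB being 0.391 to 0.582 of the control mean. These 4 of 9 genes called lower, and 0 called higher, compare with 3.98% and 3.92% of the 13105 genes tested. A call needed a Benjamini-Hochberg adjusted p under 0.05 in limma and a log2 fold change of 0.5 or more in size. An unadjusted p under 0.05 was found for 8 of the 9 genes, all but Oca2, and for 35.3% of all genes.

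Tyr, the enzyme that starts melanin synthesis, had 4.0, 4.77, 6.86 and 3.44 TPM in Control WT rats 1 to 4 and 2.51, 2.19 and 2.43 in UVB WT rats 1 to 3. Every irradiated rat was below every control rat, and the irradiated rats lay close together whereas the controls were spread. On the log2(TPM + 1) scale, on which all fold changes here are given and which understates the change of low genes, Tyr fell by 0.74 (SE 0.19, limma adjusted p = 0.0121). Tyrp1, the other enzyme of the group, had 21.3, 31.9, 41.0 and 22.2 TPM in the controls and 18.3, 18.6 and 20.4 after UVB. It did not overlap either, but its control rats 1 and 4 were only slightly above the irradiated ones, and its log2 fold change of -0.53 (SE 0.24) missed the threshold with a limma adjusted p of 0.129.

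The melanosome proteins were both called. Pmel had 32.3, 49.9, 65.1 and 40.8 TPM in the controls and 23.1, 28.7 and 28 after UVB, and fell by 0.76 on the log2 scale (SE 0.21, limma adjusted p = 0.0159). Mlana had 9.94, 12.9, 14.5 and 12.0 TPM in the controls and 6.57, 6.37 and 8.61 after UVB, and fell by 0.70 (SE 0.17, limma adjusted p = 0.00928). Neither gene overlapped between the groups, and Control WT rat 3 was the highest of its group for both, as it was for Tyr and Tyrp1. The Pmel call was lost without UVB WT rat 1, the lowest of its group, with a log2 fold change of -0.66 and a limma adjusted p of 0.0642, and in a fit of the 2 WT groups alone, where the adjusted p was 0.0533.

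Slc45a2, a melanosome transporter, had the largest relative change of the 9 genes. It measured 1.22, 1.81, 2.43 and 1.66 TPM in the controls and 0.75, 0.59 and 0.75 TPM after UVB, without overlap, so that the mean fell by 60.9%. On the log2 scale it fell by 0.70 (SE 0.15, limma adjusted p = 0.00436). Oca2, the other transporter, was between 0.32 and 0.89 TPM in the controls and between 0.33 and 0.52 after UVB, which overlapped, and its log2 fold change was -0.20 (95% interval -0.54 to 0.14).

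The transcription factors were lower by less than the fold threshold. Mitf was at 7.31 to 9.54 TPM in the controls and at 5.43 to 6.66 after UVB, without overlap, with a log2 fold change of -0.40 (SE 0.10, limma adjusted p = 0.0109). Sox10 was at 3.49 to 4.61 TPM in the controls and had 3.59, 2.42 and 2.70 TPM after UVB, so that UVB WT rat 1 lay within the control range, with a log2 fold change of -0.37 (limma adjusted p = 0.0468). Kit, the receptor, was the only one of the 9 genes with a higher mean after UVB. It had 16.3, 15.1, 19.1 and 20.9 TPM in the controls and 24.9, 23.5 and 21.1 after UVB, which did not overlap, but its log2 fold change of 0.37 missed both thresholds (limma adjusted p = 0.0557).

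In all, 6 of the 9 genes were lower without overlap in WT rats, against 12.6% of all genes tested, and Kit was higher without overlap, as were 14.0% of all genes. The median log2 fold change of the 9 genes was -0.53, and that of all genes tested was 0.01. The two-sided exact permutation test of a single gene cannot go below p = 0.0571 with 3 against 4 rats, and it gave that value for each of the 7 genes without overlap.

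The second comparison asked the same of P1.hMR rats. Here 0 of the 9 genes were called by limma in either direction, against 10.8% of all genes tested, although 5 of the 9 had an unadjusted p under 0.05, as had 47.6% of all genes. The median log2 fold change of the 9 genes was -0.36, and that of all genes was -0.02. Tyr, Slc45a2, Mitf and Sox10 had an adjusted p under 0.05 with a fold change below the threshold.

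Tyr had 4.98, 5.62, 5.67, 5.41 and 6.30 TPM in Control P1.hMR rats 1 to 5 and 3.67, 5.09, 3.21, 4.86 and 2.34 in UVB P1.hMR rats 1 to 5. Only irradiated rat 2 reached the control range, and rat 4 lay just below it. The log2 fold change of Tyr was -0.48 (SE 0.16, limma adjusted p = 0.0241), just short of the fold threshold, and Tyr was called without Control P1.hMR rat 1 (-0.51), without UVB P1.hMR rat 2 (-0.57) or without UVB P1.hMR rat 4 (-0.56). Tyrp1 ranged from 21.6 to 44.8 TPM in the controls and from 24.6 to 42.4 after UVB, with a log2 fold change of -0.02 (95% interval -0.45 to 0.40).

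Pmel ranged from 42.7 to 58.9 TPM in the controls and from 34.0 to 61.1 after UVB, where rat 4 was above every control, and its log2 fold change was -0.33 (95% interval -0.70 to 0.03, limma adjusted p = 0.133). Mlana ranged from 11.2 to 17.6 TPM in the controls and from 9.29 to 15.2 after UVB (log2 fold change -0.36, limma adjusted p = 0.0587). Both melanosome proteins overlapped between the groups, with 3 of 5 irradiated rats below every control. Slc45a2 had 1.87, 1.69, 1.86, 2.08 and 2.65 TPM in the controls and 1.0, 1.45, 1.2, 1.83 and 1.03 after UVB, so that only rat 4 overlapped (log2 fold change -0.40, limma adjusted p = 0.0178). Oca2 overlapped as well, with a log2 fold change of -0.15 (95% interval -0.43 to 0.12).

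Mitf and Sox10 were the 2 genes without overlap in P1.hMR rats, where 14.0% of all genes were lower without overlap. Mitf had 8.49, 8.2, 8.94, 8.0 and 10.5 TPM in the controls and 6.77, 7.34, 6.54, 6.80 and 5.72 after UVB (log2 fold change -0.36, limma adjusted p = 0.00308). Sox10 had 3.66, 3.16, 4.02, 4.71 and 5.01 TPM in the controls and 2.84, 2.98, 3.06, 2.91 and 2.73 after UVB (log2 fold change -0.38, limma adjusted p = 0.0101). Each gave a two-sided exact permutation p of 0.0079, the smallest possible with 5 against 5 rats. The irradiated rats lay close together for Sox10, with an SD of 0.127 TPM against 0.756 in their controls. Kit was at 16.7 to 21.8 TPM in the controls and at 17.1 to 25.8 after UVB, which overlapped, with a log2 fold change of 0.13 (95% interval -0.10 to 0.36).

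Under UVB, 8 of the 9 genes were measured higher in P1.hMR than in WT rats, Sox10 by only 0.01 on the log2 scale, and Kit was lower. By limma, 0 of the 9 genes were called, against 0.0229% of all genes tested, which were 3 genes. An unadjusted p under 0.05 was found for 5 of the 9 genes, namely Tyrp1, Pmel, Mlana, Tyr and Slc45a2, and for 10.3% of all genes. The median log2 difference of the 9 genes was 0.43, against -0.02 over all genes. Among the 9, Oca2 passed the filter only through P1.hMR rats, which favours a positive difference for it. This comparison and the UVB comparison within WT rats share the 3 UVB WT rats, so they are not independent.

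Tyrp1 had 25.9, 37.2, 26.8, 42.4 and 24.6 TPM in UVB P1.hMR rats 1 to 5, all above the UVB WT maximum of 20.4, with a mean that was 64.1% higher. The log2 difference was 0.66 (95% interval 0.16 to 1.15, limma adjusted p = 0.346). Pmel had 36.4, 45.9, 37.6, 61.1 and 34.0 TPM in the same rats against at most 28.7 in UVB WT rats, a log2 difference of 0.65 (95% interval 0.23 to 1.06, limma adjusted p = 0.286). Rats 2 and 4 were the highest for both genes, as they were for 7 of the 9 genes, Sox10 and Kit being the exceptions.

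Mlana had 9.61, 12.0, 9.85, 15.2 and 9.29 TPM in UVB P1.hMR rats against at most 8.61 in UVB WT rats (log2 difference 0.56, limma adjusted p = 0.279). Slc45a2 was at 1.0 to 1.83 TPM against at most 0.75 TPM (log2 difference 0.43, limma adjusted p = 0.325). Tyrp1, Pmel, Mlana and Slc45a2 were thus higher without overlap, as were 1.73% of all genes, and each gave a two-sided exact permutation p of 0.0357, the smallest possible with 5 against 3 rats. Tyr overlapped through rat 5 alone, which at 2.34 TPM lay within the UVB WT range of 2.19 to 2.51 (log2 difference 0.48, limma adjusted p = 0.375).

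For the regulators the log2 difference was 0.10 for Mitf (95% interval -0.10 to 0.31), 0.01 for Sox10 (95% interval -0.25 to 0.27), whose sign changed with quantile normalization, and -0.11 for Kit (95% interval -0.38 to 0.15), all with overlap. Whether the difference of the pigment genes was larger than that of Mitf or Sox10 was not tested.

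Without UVB, 0 of the 9 genes were called by limma between the genotypes and 0 had an unadjusted p under 0.05, against 0.00763% called and 4.03% with such a p among all genes. The log2 differences were all on the side of P1.hMR, from 0.01 for Sox10, whose sign changed with quantile normalization, to 0.22 for Tyr. Of all 13105 genes tested, 6402 had a positive difference. Oca2 passed the filter only through P1.hMR rats, which favours its positive sign, and genes that vary together do not give independent signs. Every gene overlapped, where 0.420% of all genes were higher and 0.610% lower without overlap. Mean Tyr was 4.77 ± 1.5 TPM in Control WT and 5.60 ± 0.479 in Control P1.hMR rats, and mean Pmel was 47 ± 14 and 53.6 ± 6.61 TPM. The smallest two-sided exact permutation p of the 9 genes was 0.222, where 5 against 4 rats allow 0.0159.

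The difference between the UVB responses of the genotypes was tested as an interaction. By limma, 0 of the 9 genes were called and 0 had an unadjusted p under 0.05, which 6.92% of all genes had, while 0% of all genes were called. The estimates were 0.51 for Tyrp1 (95% interval -0.16 to 1.18), 0.42 for Pmel (-0.14 to 0.99), 0.35 for Mlana (-0.13 to 0.82), 0.30 for Slc45a2 (-0.12 to 0.71) and 0.26 for Tyr (-0.26 to 0.78), positive values meaning a smaller decrease in P1.hMR rats. The 4 calls in WT and the 0 calls in P1.hMR rats therefore do not show that the responses differed, and the intervals of these 5 genes hold both no difference and one as large as the WT response itself.

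**Figure D2:**
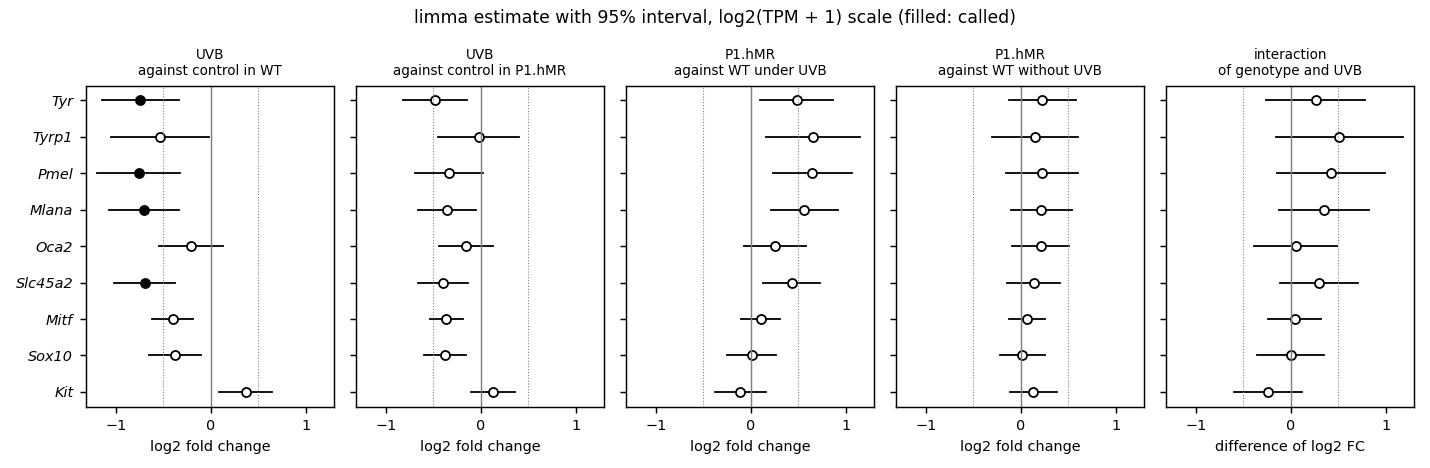
Log2 fold change of the 9 genes on the log2(TPM + 1) scale (horizontal axis) in the 4 comparisons and the interaction (panels), with the 95% interval of limma as a line, a filled point where the gene was called and dotted lines at the fold threshold of 0.5. Tyr, Pmel, Mlana and Slc45a2 in WT rats are the only filled points, and the interaction intervals of all 9 genes include 0.

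The pigment genes also varied together from rat to rat within the groups. After the group mean was subtracted from each log2 value, the highest correlation over the 17 rats was that of Tyrp1 with Pmel (Pearson's r = 0.90, Spearman's rho = 0.93). The permutation p, from 100000 shuffles of the rats within their groups, was 1e-05 for both measures, the smallest these shuffles can give (Benjamini-Hochberg adjusted over the 36 pairs of the 9 genes, 0.00036), and r was 0.91 without the 2 rats farthest from the median of Tyrp1. Of the 36 pairs, 13 had an adjusted permutation p under 0.05, and 10 of these 13 were all the pairs among Tyr, Tyrp1, Pmel, Mlana and Slc45a2, with r from 0.66 to 0.90 and rho from 0.63 to 0.93 (largest permutation p 0.014 and 0.0196). Without the 2 rats farthest from the median, r of these 10 pairs was 0.59 to 0.91. Oca2, which is counted with these 5 genes in the pigment mean below, was left out of this group. Of its 5 pairs with them, 0 had an adjusted permutation p under 0.05.

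For Mitf, r with these 5 genes was 0.56 to 0.72 (rho 0.57 to 0.75, largest permutation p 0.0388, adjusted 0.0735). Of these 5 pairs, 2 had an adjusted permutation p under 0.05, those with Tyr and Slc45a2. Without the 2 rats farthest from the median, r of the 5 Mitf pairs was 0.44 to 0.74. For Oca2, r with the same genes was 0.12 to 0.65 (rho 0.15 to 0.64, largest permutation p 0.691). The values of Sox10 were r = 0.57 with Slc45a2 (rho 0.59, permutation p = 0.00846 and 0.0108, adjusted 0.0308), which was 1 of the 13 pairs, and r = 0.58 with Mitf (rho 0.57, permutation p = 0.0361 and 0.0334, adjusted 0.0722), which was not. With Tyr, Mlana, Tyrp1 and Pmel they were r = 0.27, 0.09, 0.11 and 0.03 (rho 0.32, 0.18, 0.10 and 0.04), with permutation p of 0.179 or more. Differences between these correlations were not tested. Kit stood apart from the pigment genes, with r from -0.21 to 0.29 (rho -0.13 to 0.20), and no adjusted permutation p under 0.05. Both values of a pair come from the same library, so that anything that changes a library as a whole enters both.

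**Figure D3:**
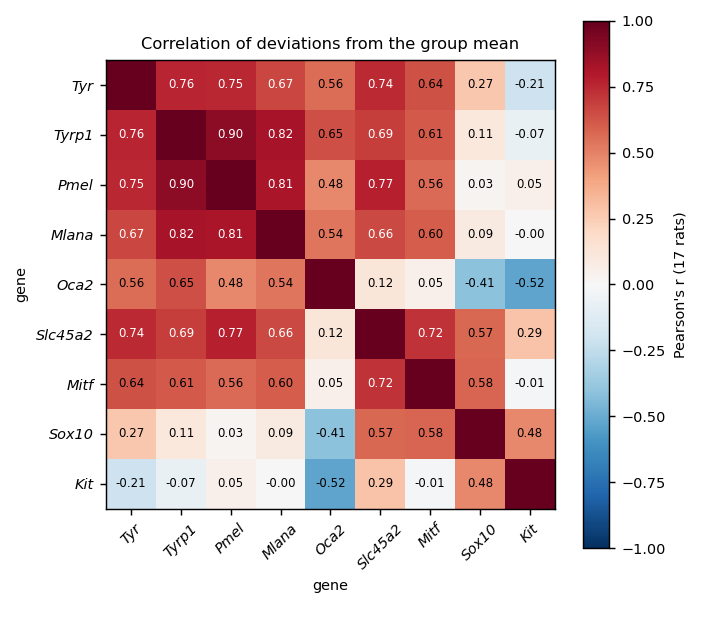
Pearson's r over the 17 rats between the deviations of each pair of genes (both axes) from their group means, on the log2(TPM + 1) scale, from -1 in blue to 1 in red. The block of Tyr, Tyrp1, Pmel, Mlana and Slc45a2 holds values of 0.66 to 0.90, whereas the values of Kit with these genes lie between -0.21 and 0.29.

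Among the 13096 other genes tested, the 10 whose level was most like the mean log2 level of Tyr, Tyrp1, Pmel, Mlana, Oca2 and Slc45a2 over the 17 rats were ranked by Pearson's r, as a description. AABR07019383.1, a gene without a symbol, was first with r = 0.97 and a mean of 82.4 TPM, above that of Pmel, and r = 0.96 remained after subtracting the group means. Gpr143 (r = 0.88), a melanosome receptor, Slc24a5 (0.85), a melanosome exchanger, and Trpm1 (0.82), a channel of melanocytes, were among the 10. The others were Lipk (0.84), Cyp3a9 (0.83), Ccl28 (0.82), Ddx6 (0.82), AABR07034648.1 (0.81) and Adgrf2 (0.80). With the group means subtracted, r was 0.73 for Gpr143, 0.75 for Slc24a5, 0.72 for Trpm1 and 0.47 for AABR07034648.1.

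Other genes of the pigment cell moved in both directions. After UVB, 9 were measured lower and 4 higher in WT rats, and 8 lower and 5 higher in P1.hMR rats. Rab38, Mreg and Gpnmb averaged 95.1, 199 and 103 TPM in Control WT rats, above Pmel at 47. Whether melanocytes made this RNA was not tested. Of the 13 tested, UVB gave 2 calls in either direction in WT rats and likewise in the transgenic rats, where the median log2 fold change was -0.18 and -0.31. Gpr143 fell from 1.6 ± 0.517 to 0.667 ± 0.119 TPM in WT rats (log2 fold change -0.62, limma adjusted p = 0.0131), a call that was lost without Control WT rat 3 and in a fit of the WT groups alone, and was at 1.13 ± 0.280 TPM in UVB P1.hMR rats. Tspan10, a tetraspanin of pigment cells, fell in both genotypes, by 0.96 on the log2 scale in WT (limma adjusted p = 0.0329) and by 1.59 in P1.hMR rats (limma adjusted p = 0.00015), though the 3 UVB WT rats ranged from 1.04 to 6.83 TPM and the WT call was lost without any of Control WT rats 2, 3 and 4 or UVB WT rats 2 and 3, without the filter on low values and in a fit of the WT groups alone. Slc24a5 and Trpm1, which were among the 10 genes above, had lower means after UVB in both genotypes without a call. Mean Slc24a5 went from 2.49 to 1.57 TPM in WT and from 3.35 to 2.62 in P1.hMR rats. Mean Trpm1 went from 2.95 to 1.79 TPM and from 3.32 to 2.21. Both genes overlapped between control and UVB in P1.hMR rats but not in WT rats. Mlph, which links melanosomes to their motor, fell in P1.hMR rats (log2 fold change -0.55, limma adjusted p = 0.000574). Its call was lost without Control P1.hMR rat 2 or UVB P1.hMR rat 5, but its log2 fold change stayed between -0.67 and -0.49 under all alternatives.

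Ednrb, the endothelin receptor of melanocytes, which other cells also make, rose in both genotypes. It went from 4.78 ± 1.24 TPM in Control WT to 18.2 ± 4.37 in UVB WT rats (log2 fold change 1.73, limma adjusted p = 1.81e-05), and from 4.28 ± 0.826 to 21.7 ± 1.2 TPM in P1.hMR rats (log2 fold change 2.12, limma adjusted p = 1.27e-07). Slc7a11, a cystine transporter, rose as well (log2 fold changes 0.77 and 1.01), though its WT call was lost without UVB WT rat 3 and in a fit of the WT groups alone. Between the genotypes, 0 of these 13 genes were called by limma under UVB, against 0.0229% of all genes, and 0 without UVB, against 0.00763%. An unadjusted p under 0.05 was found for 3 of them in irradiated rats, against 10.3% of all genes. In control rats it was found for 1 of them, against 4.03% of all genes.

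Of 8 tested genes for signals that act on melanocytes, Hgf (log2 fold change 0.66) and Nrg1 (0.73) rose in WT rats. The WT call of Nrg1 was lost without UVB WT rat 3. In P1.hMR rats Nrg1 rose (0.87) and Edn3, a ligand of Ednrb, fell (-0.71). Without Control P1.hMR rat 4 or UVB P1.hMR rat 2 or 3, 2 of these genes were called higher in P1.hMR rats, and without UVB P1.hMR rat 4, 2 were called lower. Kitlg, the ligand of Kit, was called in no comparison, with 15.3 ± 1.24 TPM in Control WT and 16.4 ± 1.57 in UVB WT rats, and with 15.9 ± 2.19 in Control P1.hMR and 19.0 ± 1.29 in UVB P1.hMR rats. Of 19 tested genes of melanosome biogenesis and transport, which many cells use for related organelles, Myo5a was called higher and Rab27a lower in WT rats, and Rab27a lower in P1.hMR rats. Rab27a, a small GTPase of organelle transport, fell from 54.1 ± 6.73 to 32.2 ± 6.96 TPM in WT rats (log2 fold change -0.74, limma adjusted p = 0.00102) and from 54.9 ± 5.82 to 30.2 ± 2.92 TPM in P1.hMR animals (log2 fold change -0.84, limma adjusted p = 2.09e-05). The median log2 fold change of these 19 genes was 0.01 in WT, and 0.00 with the transgene. For comparison with both lists, 514 of all 13105 genes tested were called higher and 522 lower in WT rats, and 662 and 748 in P1.hMR rats.

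Markers of other cells that carry some of these transcripts, or that lie beside melanocytes, moved with UVB too. For comparison, 522 of all 13105 genes tested were called lower in WT and 748 in P1.hMR rats. Of 14 tested markers of the hair matrix and shaft, 9 were called lower in WT, at a median log2 fold change of -0.97, and 7 in P1.hMR rats, at -0.63. These counts varied with the rats and settings used. In WT the 9 became 13 without Control WT rat 2 or UVB WT rat 3. They became 3 with sample weights, 6 in a fit of the WT groups alone, 5 without Control WT rat 1 or 4, 4 without Control WT rat 3, 3 without UVB WT rat 1 and 2 without UVB WT rat 2. In P1.hMR the 7 became 3 without Control P1.hMR rat 2 or 5 or UVB P1.hMR rat 2 or 5, and 11 without Control P1.hMR rat 3. The summed level of the list was 419 to 850 TPM in Control WT and 197 to 503 in UVB WT rats. In P1.hMR animals it was 336 to 870 TPM in controls and 292 to 442 after UVB, so that the irradiated genotypes overlapped. Lef1, Msx2, Krt32, Krt35, Hoxc13 and Padi3 were among those that fell in both genotypes. The WT calls of Hoxc13 and Padi3 were lost with sample weights and without Control WT rat 1 or 3 or UVB WT rat 1 or 2, that of Hoxc13 also without Control WT rat 4 or without the filter on low values, and that of Padi3 also in a fit of the WT groups alone. In WT, Krt35 was not called with sample weights or without UVB WT rat 1 or 2, and Krt32 not without UVB WT rat 2. In P1.hMR rats, Krt32, Krt35 and Lef1 were not called without Control P1.hMR rat 2 or 5 or UVB P1.hMR rat 2 or 5, Krt35 and Lef1 not with sample weights, Krt35 not without Control P1.hMR rat 1 or 4, and Lef1 not without UVB P1.hMR rat 1 or with quantile or median-of-ratios scaling. Over the 17 rats, r between the level of these markers and the mean pigment level lay between 0.03 for Krt84 and 0.65 for Lef1, with 0.53 for Krt32 and 0.41 for Krt34. With the group means subtracted, r lay between -0.28 for Krt36 and 0.16 for Lef1, with -0.06 for Krt32 and 0.01 for Krt34. The part of the hair follicle in the lower pigment genes was not tested.

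Of 11 tested Schwann cell markers, 4 were called lower in WT rats and 3 in P1.hMR rats, beside the lower Sox10. The 4 became 5 without Control WT rat 1, 2 without Control WT rat 2 or 4, and 1 without UVB WT rat 2. The summed level of the list was 225 to 280 TPM in Control WT and 192 to 241 in UVB WT rats, and 253 to 299 in Control P1.hMR and 194 to 205 in UVB P1.hMR rats. The part of Schwann cells in the level of Sox10 was not tested.

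Of 6 tested mast cell markers, 3 were called higher in WT rats and 5 in the transgenic rats, against 514 and 662 of the 13105 genes tested. Kit itself was called in neither genotype (log2 fold changes 0.37 and 0.13). The summed level of the 9 listed mast cell markers, of which these are 6, was 8.62 to 11.8 TPM in Control WT and 8.12 to 12.8 in Control P1.hMR rats, against 18.7 to 27.6 in UVB WT and 24.9 to 44.5 in UVB P1.hMR rats, without overlap between control and UVB. Hdc, which makes histamine, and Tpsab1 and Cpa3, mast cell proteases, rose in both genotypes, though the WT call of Cpa3 was lost without UVB WT rat 3. The part of mast cells in the level of Kit was not tested. Of the markers of the retinal pigment epithelium, another pigmented tissue, Rpe65, Rlbp1, Rgr and Ttr were at 0.25 TPM or less in every rat, the last 3 being listed at 0 in at least 1 rat of every group, while Lrat was called higher in both genotypes (log2 fold changes 0.56 and 0.63), in WT not without Control WT rat 2 or UVB WT rat 1 or 3, nor in a fit of the WT groups alone.

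Single MG genes moved with UVB although their sum was close in all groups. A close sum can hold opposite changes of abundant genes. Mean Awat2 went from 11610 to 7380 TPM in WT and from 10455 to 7280 TPM in P1.hMR rats. Mean Krt14, which was not called, went from 5279 to 7338 TPM in WT and from 5297 to 7589 TPM in P1.hMR rats. Of the 12, Scd4, a fatty acid desaturase, Awat2, which makes wax esters, and Krt7, a keratin, were called lower in both genotypes, and Elovl3, a fatty acid elongase, and Fabp5, a fatty acid carrier, were called higher. The log2 fold changes in WT and P1.hMR rats were -1.25 and -1.39 for Scd4, -0.65 and -0.52 for Awat2, -0.57 and -0.65 for Krt7, 0.55 and 0.77 for Elovl3 and 0.55 and 0.60 for Fabp5. In WT, Krt7 was not called without Control WT rat 2, 3 or 4 or UVB WT rat 1 or 3 or without the filter on low values, Elovl3 not without Control WT rat 3 or 4 or UVB WT rat 2 or 3, both not in a fit of the WT groups alone, and Fabp5 not without Control WT rat 4 or UVB WT rat 2. In P1.hMR rats, Awat2 was not called without UVB P1.hMR rat 5 or with quantile normalization. The part of the gland cells in the level of the pigment genes was not tested.

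**Figure D4:**
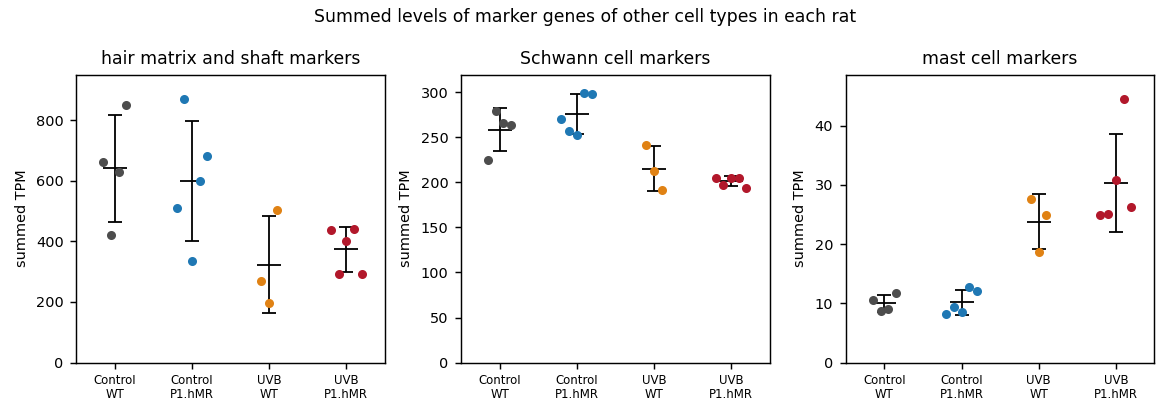
Summed TPM (vertical axis, linear from 0) of markers of the hair matrix and shaft, Schwann cells and mast cells in each rat (points) by group (horizontal axis), with the group mean and SD as bars. The mast cell sum is at most 12.8 TPM in the controls and at least 18.7 TPM after UVB, while the hair sums overlap between control and UVB rats.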

How the data were processed

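MG RNA of 17 rats was sequenced. The study's methods state FastQC, alignment with STAR to rn7 and quantification with RSEM, and the submitters' processing notes name FastQC, Trimmomatic, DRAGEN and Picard with rn7. The authors deposited TPM for each rat, written with 2 decimals, and the columns sum to between 804378 and 840817 TPM. No read depth can be recovered from TPM. Every rat was assigned to its group from its title.

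Values were analysed as log2(TPM + 1). A gene was tested if 3 or more rats had 1 TPM or more, which left 13105 genes. They were fitted in 1 limma model (limma 3.58.1, R 4.3.3) with group as the only factor and a variance trend. limma was used since TPM are not counts, with the call thresholds of the study's methods (adjusted p under 0.05, log2 fold change of 0.5 or more in size, two-sided). Single genes were compared with two-sided exact permutation tests (Python 3.11.15, scipy 1.17.1). The model was tested on simulated data. The pigment genes and the marker lists were chosen with earlier results of these data known. The genes named were all pigment genes, genes called or at 0 in the lists, and the 10 genes most like the pigment mean, with Pearson's r. In the lists, further genes with their r or level are named as examples after their values were seen. The alternatives were another pseudocount, other filters, normalizations, fold thresholds and weights, a fit of 2 groups, no variance trend, a replicate block and leaving out each rat. The labels give no batch. The other experiments of the study were not analysed here.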

Additional observations from a re-analysis of the deposited data

How the results depend on the processing

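The 4 genes called lower by UVB in WT rats became 2 when only genes with a mean of at least 5 TPM were tested, which removes Tyr and Slc45a2, 0 with a fold threshold of 1 on the log2 scale, 6 with no fold threshold (with Mitf and Sox10), and 3, without Pmel, in a fit of the WT groups alone or without UVB WT rat 1. In P1.hMR rats, the 0 genes called lower became 2 with a pseudocount of 0.1 (Tyr and Slc45a2), 1 with sample weights (Tyr), 4 with no fold threshold (Tyr, Slc45a2, Mitf and Sox10) and 0 to 1 when each rat was left out in turn. Differences near 0 changed sign. For Sox10, the difference between genotypes under UVB was -0.0011 with quantile normalization, -0.0491 with the replicate block and -0.0787 to 0.1336 with each rat left out; without UVB it was -0.0101 with quantile normalization, -0.0084 with sample weights, -0.0089 with the replicate block and -0.0478 to 0.0849 with each rat left out. Its interaction was 0.0032 with a pseudocount of 0.1, 0.009 with quantile normalization, 0.0159 with median-of-ratios scaling, 0.0274 with sample weights and -0.0924 to 0.1198 with each rat left out. Leaving out each rat gave -0.1504 to 0.1048 for Tyrp1 after UVB in P1.hMR rats, and for the interaction -0.0292 to 0.0976 for Mitf and -0.014 to 0.1586 for Oca2, which was -0.0475 with sample weights. The cause of these sign changes was not tested. No other direction changed under the alternatives run.

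Over 22 pairs of rats with the same number in different groups, r of their deviations ranged from -0.187 to 0.235 with a median of -0.01, and 4 were over 0.1. The pairs of Control WT with Control P1.hMR rats were all positive, at 0.192, 0.0421, 0.118 and 0.235, and the cause was not tested. The numbers were not taken as pairs, and with the replicate block 4 genes were called lower by UVB in WT rats and 0 in P1.hMR rats, as without it. The block took the marker calls in WT rats from 9 to 4 for the hair list, with Hoxc13 and Padi3 among those lost, from 4 to 2 for the Schwann cell list and from 2 to 1 for the other pigment cell genes that were lower, without Tspan10, and Krt7 and Elovl3 lost their WT calls. Of the 30 marker genes called in WT and the 29 in P1.hMR rats, run under the same alternatives after the data were seen, 0 changed direction. A mean of at least 5 TPM left 18 and 16 of them to test, all still called, and no mast cell marker. With a fold threshold of 1 on the log2 scale, 7 of the 30 and 8 of the 29 were still called. In WT rats, 20 of the 30 were still called in a fit of the WT groups alone or with the block, and 17 without UVB WT rat 2. In P1.hMR rats, 22 of the 29 were still called without UVB P1.hMR rat 5. TPM give no depth, so how far depth limits Oca2 and Slc45a2 is unknown. With 3 UVB WT rats, every comparison with that group rests on few animals.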
